A study of Mus musculus with 8 samples.

Results

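Methylated CpG-rich clusters were short groups of HpaII sites that lay close together on the chromosome and yet gave almost no HpaII tags in mouse liver. They were found among autosomal sites listed in all 8 livers with at least 10 tags in the MspI reference, joined wherever neighbours were at most 500 bp apart. A cluster of 5 to 19 sites was included when its mean m-score over sites and mice was below 10. The m-score is the deposited measure of cutting by HpaII, where 0 means no HpaII tag (methylated) and 100 means HpaII tags only (unmethylated). The clusters were thus selected on the m-score itself. The rule found 2363 methylated clusters among 20674 autosomal clusters of 5 or more sites (11.4%), with 14311 of the 901217 sites.

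The livers came from C57BL/6J mice that all received a high-fat diet, 4 of them with lingonberries and 4 without (HFD). HELP-tagging sequences short tags from the ends left by HpaII, which cuts CCGG only where its CpG is unmethylated, and sets them against MspI, which cuts either way. Age, sex and the length of feeding were not in the labels used, and DNA tags hold no expression markers by which the tissue could be checked. Libraries held 5877080 to 16076961 HpaII tags, and the deepest were in the lingonberry group. The reference of 29676290 MspI tags was scaled to the HpaII total of each library, so an m-score compares a site with the rest of its own library.

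In somatic cells most CpGs are methylated, and the dense groups of CpGs known as CpG islands usually stay unmethylated, above all at gene starts. A known exception is a group of genes used in germ cells. Their CpG-rich promoters gain methylation in the early embryo through the methyltransferase Dnmt3b and are held silent in body tissues. Repeats and the bodies of transcribed genes are other places where closely spaced CpGs are known to be methylated. Several germline promoters are bound in stem cells by a repressor complex that holds E2F6, MGA and MAX, whose subunits read TCCCGC and CACGTG.

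The promoters below are shown because they carried the clearest identities among the methylated clusters. The files give positions in mm9, for which no genome was used here, so RefSeq promoter sequences (GRCm38.p6) were placed on the mm9 site map by the spacing of their CCGG sites and then by gene order. Each sequence runs 5′ to 3′ on the strand of its gene, from 250 bases before the start to 30 bases after it, and the capitals mark CCGG, the site cut by HpaII. Sycp1 lies on the minus strand at chr3:102936071-102936350, Mael on the minus strand at chr1:166238715-166238994, and Hsf5 on the plus strand at chr11:87616914-87617193, all in GRCm38.p6.
Sycp1: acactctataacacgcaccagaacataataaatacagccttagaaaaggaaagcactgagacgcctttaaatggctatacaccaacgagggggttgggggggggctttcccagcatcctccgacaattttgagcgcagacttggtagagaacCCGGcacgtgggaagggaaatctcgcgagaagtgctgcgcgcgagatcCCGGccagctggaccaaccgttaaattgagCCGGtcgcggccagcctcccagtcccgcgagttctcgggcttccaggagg
Mael: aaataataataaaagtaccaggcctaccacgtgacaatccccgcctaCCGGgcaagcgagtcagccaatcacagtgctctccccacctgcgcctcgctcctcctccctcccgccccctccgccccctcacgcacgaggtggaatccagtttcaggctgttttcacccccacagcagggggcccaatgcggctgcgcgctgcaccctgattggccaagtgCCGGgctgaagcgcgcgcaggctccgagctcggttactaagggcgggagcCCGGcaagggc
Hsf5: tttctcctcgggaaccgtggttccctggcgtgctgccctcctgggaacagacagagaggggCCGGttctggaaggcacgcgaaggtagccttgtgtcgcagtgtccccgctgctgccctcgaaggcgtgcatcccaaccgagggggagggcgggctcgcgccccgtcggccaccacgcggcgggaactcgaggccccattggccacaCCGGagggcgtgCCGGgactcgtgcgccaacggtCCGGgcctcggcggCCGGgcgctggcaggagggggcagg

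Sycp1 encodes a protein of the synaptonemal complex, which joins homologous chromosomes in meiosis. All 3 CCGG sites in its printed sequence were measured, at 17, 47 and 95 bp before the start, and their m-score was 0 in each of the 8 mice. They gave 0 HpaII tags in all libraries against 98 MspI tags, where the pooled ratio of unmethylated clusters would have given 761. A count of 0 allows up to 0.0132 HpaII tags per scaled MspI tag at 3 tags. These sites belong to a cluster selected for a low m-score, so the limit is a description only. The methylated cluster around this start (mm9 chr3:102739391-102740120) held 8 sites at a mean m-score of 1.30. Its other 5 sites lay 218 to 634 bp into the gene and had site means between 0.797 and 3.54.

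Mael encodes maelstrom, a protein of the germ-cell pathway that silences transposons. Its 4 promoter sites, of which 3 are in the printed sequence, had a mean m-score of 4.09, with 23 HpaII tags in all mice against 164 MspI tags. In the lingonberry mice the 4-site mean was 3.84, 6.48, 3.63 and 0, and in the HFD mice it was 3.31, 5.02, 3.96 and 6.49. The diet groups overlapped, and the site 200 bp before the start had an m-score of 0 in every mouse. Further into the gene the cluster (mm9 chr1:168168223-168169077, 8 sites, mean 9.19) was less uniform. The site 327 bp after the start had a mean of 29.1 and ranged from 0 in lingonberry mouse 2 to 64.5 in HFD mouse 4, with 24 HpaII tags over 20 MspI tags. The site at 149 bp had a mean of 20.7, and the last site at 654 bp was at 0 in all mice.

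Hsf5 encodes a heat shock factor of spermatocytes. Only 2 sites of its promoter window reached 10 MspI tags, at a mean of 5.64, with 17 HpaII tags over 79 MspI tags. Of these, the site before the start is the first of the 5 CCGG sites marked in the printed sequence. The site 43 bp after the start lies beyond the end of that sequence. The other marked sites, all nearer the start, were not measured, so their methylation is not known here. The Hsf5 cluster (mm9 chr11:87430406-87431561) had 7 sites and a mean of 7.30. The site 97 bp after the start stood at 23.5, and those at 595 and 893 bp were at 0 in every mouse, on 10 and 11 MspI tags. Depth at such sites is low, so 1 HpaII tag moves the score of a single mouse by many units.

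**Figure D1:**
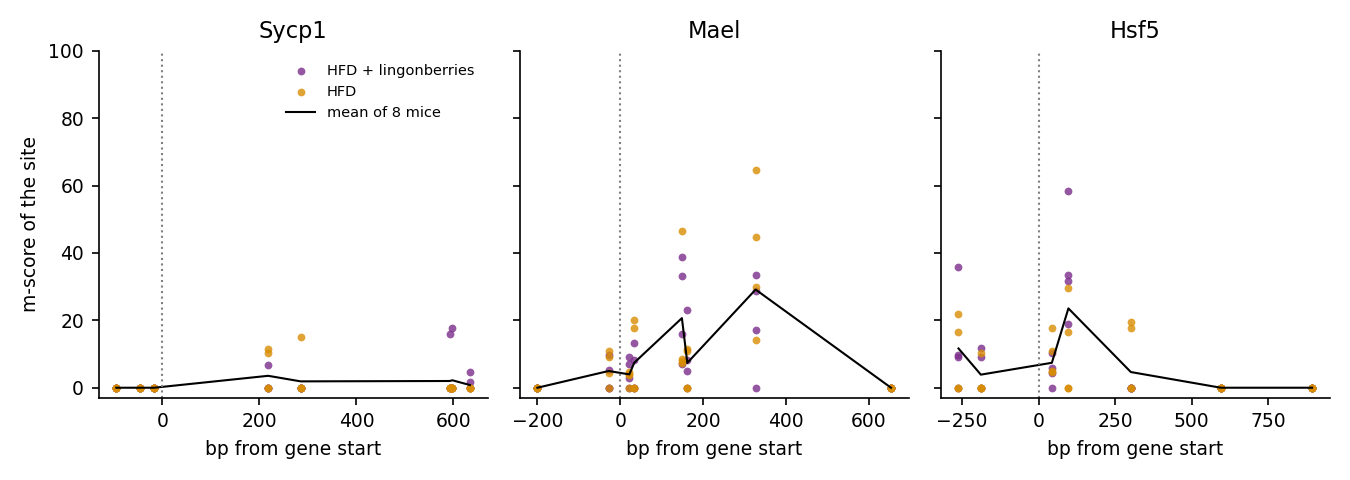
Each panel shows the m-score of every site of the methylated cluster at Sycp1, Mael or Hsf5 against its distance in bp from the gene start, in the direction of the gene. Points are single mice, the line joins the means of 8 mice and the dotted line is the start. The Sycp1 sites before the start are all at 0, and the highest points are at 327 bp in Mael and 97 bp in Hsf5.

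The germline list, drawn from textbook examples of genes silenced in this way, held 24 genes, of which 4 could be placed. It was chosen with earlier results of these data known, so its genes are a description only. Of all placed promoters with at least 3 measured sites, 24 of 5352 (0.448%) had a mean m-score below 10. Sycp1 and Mael lay in methylated clusters. Hormad1, a protein of the meiotic chromosome axis, had a promoter mean of 3.97 on 5 sites, with 21 HpaII tags over 240 MspI tags. Its cluster as a whole lay between 10 and 25, and so outside the rule. Ddx4, a germ-cell RNA helicase, differed from these 3, with a promoter mean of 55.1 and a range over mice of 42.1 to 64.1. The other 20 genes of the list were not analysed here.

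The remaining placed promoters in methylated clusters belonged to Gm51871 (mean 2.03), Gm33250 (4.32), CN725425 (9.32) and Gm52682 (9.90), which are gene models without an assigned function here. The letters CACGTG occurred in 7.15% of all 32851 promoter sequences and in 10.1% of those with at least 3 CCGG sites. Their reverse complement is the same, so both strands were covered. They were found once each in Sycp1, Mael and Gm33250, at 2 places in Hormad1, and not in the windows of the other 4 named genes. TCCCGC on either strand occurred in 19.98% of all promoters and 45.4% of those with at least 3 CCGG sites. It was found once in Sycp1, Hormad1, Hsf5 and CN725425 and at 2 places in Mael. These matches describe the letters of the windows and say nothing about binding.

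Placed gene starts, all of them rich in CCGG, were rare in methylated clusters. Shares of clusters are set side by side as descriptions, without a test. Of 32851 promoter sequences, 6935 had the 3 CCGG sites needed for placement, so gene starts with fewer were not counted. Among the 6935, 6303 were placed at a single position. Of those, 6299 were also in gene order, for 5671 genes on 19 chromosomes. Chromosome 18 was not among them, so these are not the 19 autosomes, and the clusters of chromosome 18 were left out here. A placed promoter lay in 7 of 2303 methylated clusters (0.304%), against 0.783% of clusters with a mean m-score of 10 to 25, 24.0% of those from 25 to 75 and 36.5% of unmethylated clusters at 75 or above. Among clusters with at least 3 sites close enough together to fit in a promoter window, the share was 0.393%, 1.16%, 27.0% and 37.3%. The order from methylated to unmethylated was the same within each size. With 5 or 6 sites the share was 0.226% in methylated and 18.1% in unmethylated clusters. With 10 to 19 sites it was 0 of 116 methylated clusters against 51.6% of unmethylated ones. Seen from the promoters, 24 of the 5352 with at least 3 measured sites (0.448%) had a mean m-score below 10 and 3037 (56.7%) were at 75 or above.

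**Figure D2:**
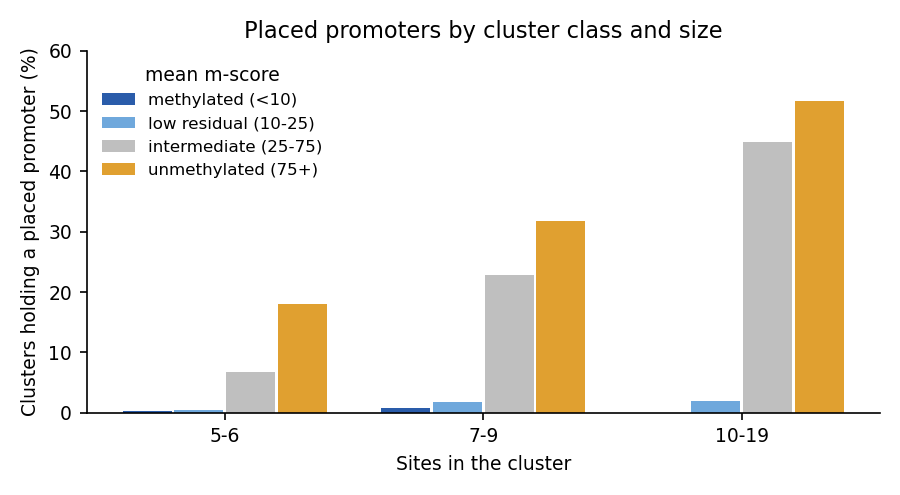
Bars give the percentage of clusters that hold a placed promoter, by number of sites in the cluster and by mean m-score. In each size class the methylated clusters have the lowest bar, from 0% at 10 to 19 sites to 0.723% at 7 to 9 sites.

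Where a methylated cluster lay near a placed gene start, it lay more often on the transcribed side. The median distance to the nearest placed start was 61213 bp. It was longer, at 68154 bp, for means of 10 to 25, and shorter at 38636 bp for 25 to 75 and 26003 bp for unmethylated clusters. Within 50 kb of a start, 580 of 1023 methylated clusters (56.7%) lay downstream in the direction of the gene. The share was 55.6% for means of 10 to 25, 48.1% for 25 to 75 and 46.3% for unmethylated clusters. Genes whose promoters were not placed could lie nearer, and whether a cluster was exonic or intronic was not analysed here.

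On the m-score scale the methylated clusters formed the lower of a pair of peaks. Bins of 2.5 units held 526, 683, 597 and 557 methylated clusters from 0 upwards, and the next bin above the threshold held 491, so the threshold of 10 cut a continuous slope. The clusters just inside it were at 9.998, 9.987 and 9.980, and those just outside were at 10.004, 10.011 and 10.013. The quartiles of the methylated clusters were 2.74, 4.88 and 7.36. Their mean was below 5 in 1209 clusters and below 1 in 153. These values chose the clusters and support nothing further.

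**Figure D3:**
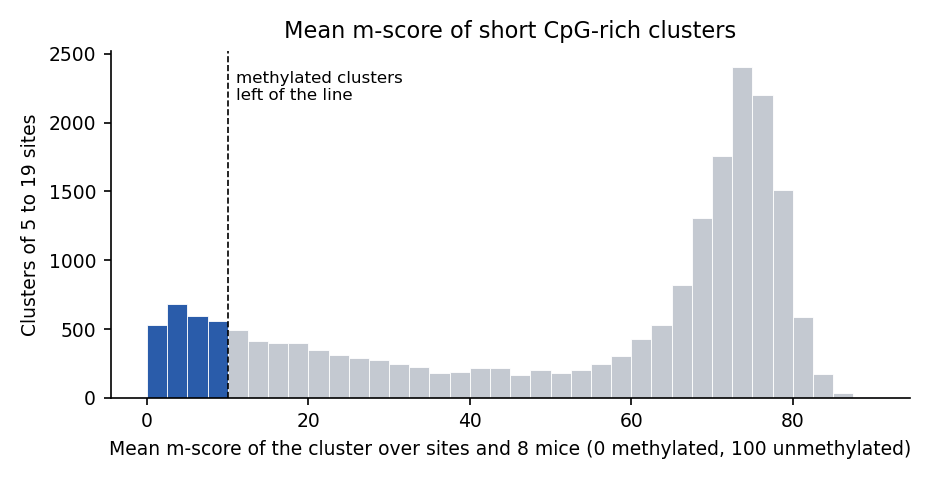
The histogram counts the 19624 clusters of 5 to 19 sites by mean m-score over sites and 8 mice, in bins of 2.5 units. Blue bars left of the dashed line at 10 are the methylated clusters, which join the next bin of 491 clusters without a gap.

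The label of CpG-rich holds for site density only in part, and the content of CpG itself was not analysed here. Methylated clusters had a median of 5 sites over 844 bp, or 5.73 sites per kb, where unmethylated clusters had 9.63 and those with means from 25 to 75 had 7.27. Their span ran from 104 to 3424 bp. They were also small, since 1243 had 5 sites and 577 had 6, together 77.0%. The median MspI depth of 28 tags per site was close to the 27 to 33 of the other classes of this size. Sites whose tags are fractional, which marks tags divided between several positions, made up 10.2% of sites in methylated clusters, against 5.46%, 3.73% and 3.33% in the other classes. In 44 methylated clusters (1.86%) every site was of that kind.

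Residual cutting was sparse and spread over many sites. The methylated clusters gave 82277 HpaII tags in all 8 libraries over 473863 MspI tags, and the median cluster gave 29 HpaII tags in all mice together. Pooled over mice this was 0.0746 HpaII tags per scaled MspI tag, against 3.34 in unmethylated clusters. An m-score of 10 stands for a ratio of 0.158 and one of 75 for 2.41, so this contrast follows from the rule. No tag was seen in any mouse at 2978 of the 14311 sites (20.8%), and 722 sites (5.05%) had a tag in all 8 mice. Sites were fewer with each further mouse, from 2562 with a tag in a single mouse to 832 with a tag in 7. Across methylated clusters the m-scores of any pair of mice correlated with r between 0.306 and 0.444 over 28 pairs. The livers share 1 MspI reference, so these correlations are a description only.

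In 9 methylated clusters no HpaII tag was seen in any mouse. Together they had 55 sites and 1485 MspI tags, and the pooled ratio of unmethylated clusters would have given 11538 HpaII tags. At 3 tags this would be 0.000868 tags per scaled MspI tag. The 9 were picked out of 2363 because they had no tag. That value is therefore no limit on their cutting, and the contrast with 11538 follows from the choice. The best covered lay at mm9 chr5:23207565-23208639, with 7 sites and 238.5 MspI tags, 25531 bp upstream of Srpk2, a kinase of splicing factors. Next were chr11:19920336-19921386 with 7 sites and 215 MspI tags, and chr14:79385770-79386171 with 5 sites and 195.67 MspI tags. At chr7:28348610-28349540, upstream of Pld3, 3 of 6 sites had shared tags, and at chr17:5241036-5241663 the count was 9 of 10.

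Mouse by mouse, the mean m-score over the 2363 methylated clusters was 4.77, 4.50, 4.85 and 5.07 in the lingonberry mice. It was 5.12, 5.12, 5.65 and 5.08 in the HFD mice. All 4 lingonberry mice were thus below all 4 HFD mice, with the nearest values at 5.07 and 5.08, and HFD mouse 3 stood highest. The group means were 4.80 ± 0.236 (SD, n = 4) and 5.24 ± 0.270 (SD, n = 4), a difference of -0.443. No test was made on this mean, since the clusters were chosen with results of these data known.

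**Figure D4:**
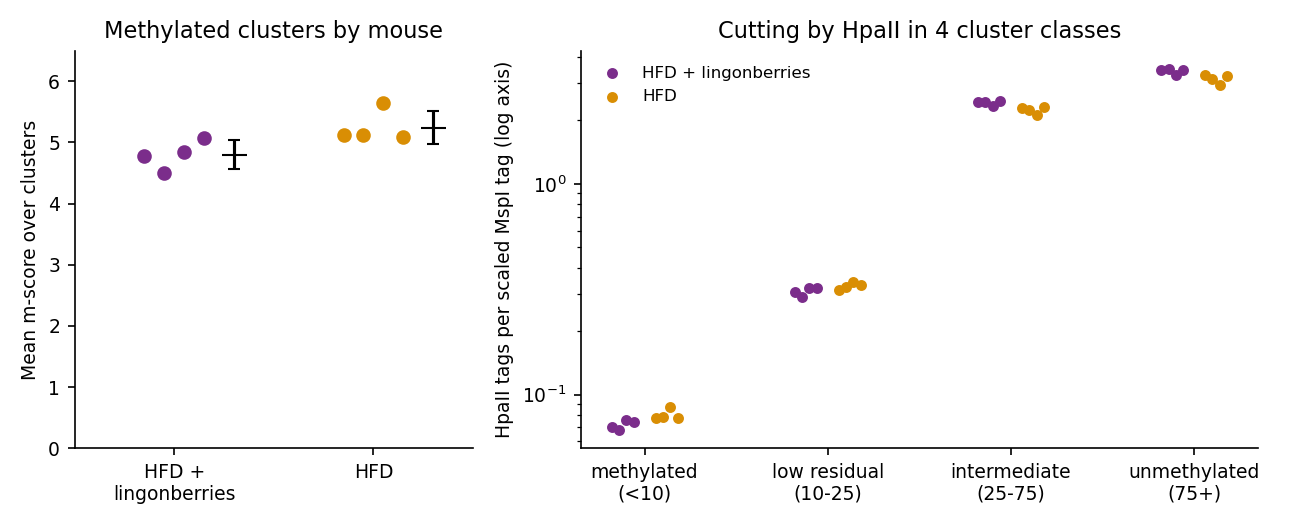
The left panel plots the mean m-score over the 2363 methylated clusters for each mouse, with bars for the mean ± SD of 4 mice. The right panel plots HpaII tags per scaled MspI tag for 4 classes of cluster on a log axis, where lingonberry mice are lower than HFD mice in the methylated class and higher in the unmethylated class.

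Tags gave the same order. HpaII tags per scaled MspI tag in methylated clusters were 0.0701, 0.0679, 0.0758 and 0.0744 with lingonberries and 0.0773, 0.0782, 0.0870 and 0.0771 with HFD alone. The group means were 0.0721 ± 0.00367 (SD, n = 4) and 0.0799 ± 0.00476 (SD, n = 4), without overlap. In unmethylated clusters the order was opposite, at 3.43 ± 0.101 with lingonberries and 3.15 ± 0.150 with HFD (SD, n = 4). The ratio of the 2 classes was 43.4 to 51.7 in lingonberry mice and 33.9 to 42.4 in HFD mice. All these tags are shares of a fixed total, so the lower share in methylated clusters and the higher share in unmethylated ones are not separate results.

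The share of methylated-cluster sites with any tag depended on depth. It was 44.0%, 36.5%, 27.2% and 41.1% in the lingonberry mice and 33.0% to 34.0% in the HFD mice, where libraries were more alike in size. The group means were 37.2% ± 7.34 and 33.3% ± 0.438 (SD, n = 4). With every library reduced to the smallest total, the expected share was 26.5%, 26.7%, 26.6% and 29.7% with lingonberries and 29.7%, 30.9%, 33.2% and 29.6% with HFD alone. The order of the group means was then reversed, at 27.4% and 30.8%, and the groups overlapped.

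Within methylated clusters the outermost sites were cut more than those inside, a position the rule did not use. Averaged over the 8 mice, m-scores were lower inwards, from 5.80 at the end sites to 4.80, 4.47 and 4.35 at the next 3 ranks. Past the second rank not every mouse followed, as in HFD mouse 4 with 4.40 at the third and 4.62 at the fourth. The fourth rank had 862 sites, from the larger clusters only, against 4726 end sites. End sites exceeded inner sites in all 8 mice, by 1.06, 0.966, 1.08 and 1.05 units in lingonberry mice and 1.32, 1.30, 1.64 and 1.35 in HFD mice. The difference was 1.04 ± 0.0496 with lingonberries and 1.40 ± 0.161 with HFD (SD, n = 4), with no overlap between diets. End sites themselves were at 5.46 ± 0.252 and 6.14 ± 0.369 without overlap, while inner sites were at 4.42 ± 0.212 and 4.73 ± 0.211 and overlapped. Neither pattern was limited to methylated clusters. In clusters with means of 10 to 25, end sites were also higher in all 8 mice, by 1.55 to 3.18 units. Above a mean of 25 the profile ran the other way, and in unmethylated clusters end sites were at 75.3, the next rank at 78.7 and the difference between -5.15 and -0.722. In each of these classes the difference between end and inner sites was lower in all lingonberry mice than in all HFD mice, by -0.839 for means of 10 to 25, -2.46 for 25 to 75 and -2.04 in unmethylated clusters, against -0.365 in methylated ones.

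**Figure D5:**
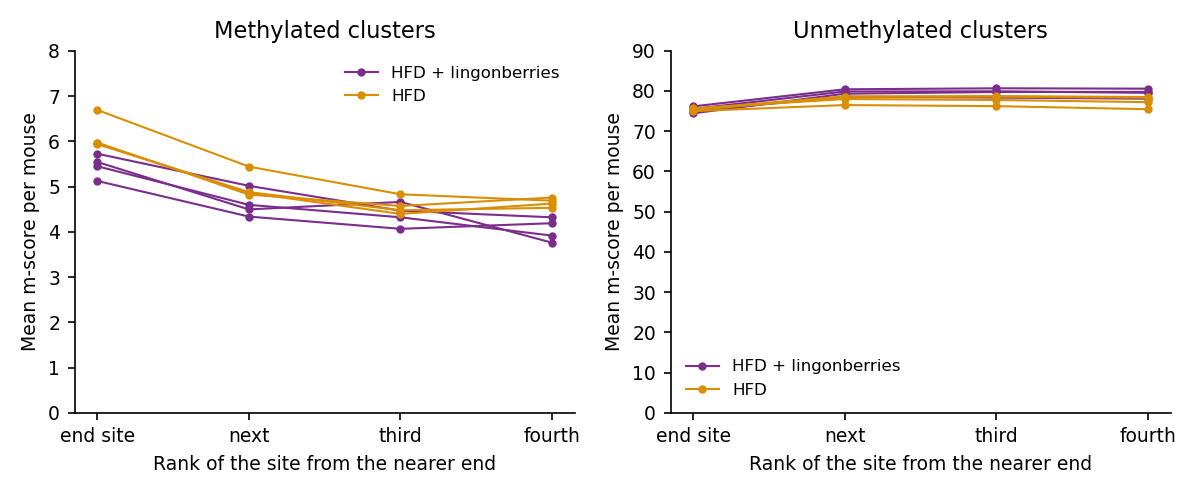
Lines give the mean m-score of each mouse by rank of the site from the nearer end of its cluster, for methylated clusters on the left and unmethylated clusters on the right, on different vertical scales. Methylated clusters descend from 5.80 at the end site to 4.35 at the fourth, and unmethylated clusters start at 75.3 and reach 78.7 at the next site.

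Few single sites inside methylated clusters had a high mean m-score, which the rule itself requires. A mean below 10 leaves a cluster of 5 sites room for at most 1 site of 25. The counts are therefore a description. A mean m-score of 25 or above was found at 273 sites (1.91%), of which 129 (47.3%) were end sites, where end sites made up 33.0% of all. There were 263 methylated clusters with 1 such site, 5 with 2 and 6 with a site of 50 or above. In 914 clusters (38.7%) every site was below 10. The widest contrast was at mm9 chr15:73581721-73582478, where 1 of 7 sites had a mean of 57.4 and the median site 1.12. At chr10:79281734-79282867 a site of 48.9 stood among sites with a median of 0. At chr8:38167081-38168619 the highest site was at 56.9, but 7 of the 8 sites had shared tags.

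The methylated clusters with most sites were examined next. A pair had 19 sites. The first, chr15:99255935-99258796, had a mean of 6.31 and lay 29336 bp downstream of the start of Nckap5l. Its m-scores were 6.10, 3.89, 11.7 and 6.48 in lingonberry mice and 6.46, 5.90, 5.75 and 4.18 in HFD mice, so lingonberry mouse 3 was highest and the groups overlapped. The other, chr7:51794788-51798107, had a mean of 6.49 and lay 11181 bp downstream of the start of Nr1h2, which encodes the oxysterol receptor LXR beta. Its values were 6.37, 4.60, 7.33 and 7.08 with lingonberries and 9.83, 5.81, 8.23 and 2.65 with HFD alone, again with overlap.

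A cluster of 16 sites at chr11:60002605-60004558 lay 19368 bp downstream of the start of Srebf1, the gene of the lipogenic regulator SREBP-1. Its m-scores were 9.36, 10.1, 7.84 and 7.39 in lingonberry mice and 9.93, 7.39, 8.36 and 8.52 in HFD mice, so the diets overlapped. It held 1 site at 44.5 among sites with a median of 5.75. The placed Srebf1 promoter itself was at 67.8. Others with 16 or 17 sites lay at chr13:45661590-45663831 (17 sites, mean 1.12), chr18:79053905-79056061 (1.20), chr19:45627322-45628978 (2.64, 5849 bp upstream of Dpcd) and chr12:109153852-109155862 (3.36). In the last, lingonberry mouse 1 was at 9.94 and the other 7 mice between 0.479 and 5.87.

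Chr11:58889625-58892565 (6.58) and chr7:89919645-89920515 (5.80) also had 16 sites. In the latter 15 sites had shared tags, over 6553 MspI tags, far above the median of 179 per methylated cluster. The cluster of 18 sites at chr12:5057486-5058815 had only 2.5 HpaII tags in all mice and a mean of 0.104. It lay 3067 bp from a longer cluster of 63 sites, mean 1.31, at chr12:5061882-5068321, which repeated part of its spacing. It also repeated the spacing of an unmethylated cluster of 7 sites at chr5:65719693-65719878, with a mean of 81.9.

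Even spacing of sites was more frequent in methylated clusters. A stretch with 4 equal gaps in a row, as tandem repeats give, was found in 41 of them (1.74%), against 0.466% for means of 10 to 25, 0.0962% for 25 to 75 and 0.111% of unmethylated clusters. The repeat lengths ran from 29 to 489 bp. Of the 41, 31 had a mean m-score below 5, and their median was 2.72. The cluster at chr11:113651471-113652358 had 15 sites at a period of 56 bp and a mean of 2.25, and that at chr2:28249035-28249818 had 12 sites at 48 bp and a mean of 1.38. At chr17:88093596-88094004, 11 sites at a period of 29 bp had a mean of 0.232 and 2 HpaII tags in all mice.

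Uneven spacings that recurred elsewhere were found in 1.44% of methylated clusters, 0.806% of clusters with means of 10 to 25, 0.943% of those from 25 to 75 and 1.40% of unmethylated clusters. They gave 20 pairs with at least 1 methylated cluster, and in 11 both were methylated. The pair at chr17:34855352-34856219 and chr17:34937348-34938215, 81129 bp apart, had means of 6.46 and 7.23. That at chr11:53368615-53369514 and chr11:53848750-53849649 had 3.41 and 1.95. Adjacent copies at chr15:75933051-75933977 and chr15:75934596-75935522 had the same m-score in every mouse, with a mean of 1.26, and all 7 sites of each had shared tags. Sites with shared tags were present in both clusters of each of the 20 pairs, so copies need not be independent measurements.

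Methylated clusters lay in surroundings that were cut more than they were. Sites within 5000 bp on either side, which the rule did not use, had a median m-score of 18.4 (quartiles 9.49 and 31.6), and 2086 of 2295 clusters (90.9%) had flanks above their own mean, which the rule kept low. The flanks of the other classes were at medians of 21.8, 28.5 and 29.9. The nearest other cluster was 11622 bp away at the median, close to the 11962 bp for means of 10 to 25, where it was 14435 bp for means of 25 to 75 and 22325 bp for unmethylated clusters. It was a methylated cluster in 20.7% of cases, against 13.6%, 9.99% and 10.6% in those classes.

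Methylated clusters were spread over all 19 autosomes, from 8.54% of clusters on chromosome 3 to 14.8% on chromosome 17. Of 2031 bins of 1 Mb with a cluster, 984 held a methylated one. The fullest bin, chr10:79000001-80000000, held 20 methylated clusters among 96. There were 333 runs of 2 or more methylated clusters with no other cluster between them. The tightest run of 6 spanned 17822 bp at chr15:76002558-76020380, with means of 1.31, 0.0520, 0.441, 0.349, 7.58 and 7.49. The first 4 of these gave 2 to 9 HpaII tags each in all mice. Another 6 in a row lay upstream of Sh2b3, an adaptor of cytokine signalling, at chr5:122302649-122355370, with means between 2.67 and 9.32.

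The study's own question was whether lingonberries altered liver methylation under the high-fat diet. By limma on the m-score with Benjamini-Hochberg adjustment over all 20674 clusters, 0 methylated clusters were called at an adjusted p below 0.05, and the background was also 0% of all clusters. The smallest adjusted p by limma was 0.604. At an unadjusted p below 0.05, 98 methylated clusters were lower and 41 higher with lingonberries. This was 4.15% and 1.74% of them, where the background was 1.86% lower and 6.32% higher. In both directions together it was 139 (5.88%), below the background of 8.18%, so the count itself does not set methylated clusters apart.

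Directions are given here beside their background. The group mean was lower with lingonberries in 1334 of 2363 methylated clusters (56.5%), against 34.1% of all clusters. The median difference was -0.289 units (quartiles -1.75 and 0.947), with a median SE of 1.92, against 1.01 over all clusters and 1.49 in unmethylated clusters. It was -0.850 in the clusters with means of 10 to 25. All 4 lingonberry mice were below all 4 HFD mice in 47 methylated clusters (1.99%, background 0.963%) and above them in 22 (0.931%, background 3.88%). Each of these values is relative to the fixed total of a library. HFD mouse 3, the highest in methylated clusters, had the smallest library, and without it the median difference was -0.158.

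On log2 HpaII tags per 1000000 (pseudocount 0.5), limma called 0 methylated clusters after adjustment, with a background of 0%, and the smallest adjusted p was 0.349. At an unadjusted p below 0.05, 108 (4.57%) were lower and 37 (1.57%) higher, together 6.14%. The background was 1.49% lower and 11.4% higher, and 12.8% in both directions. The median log2 difference was -0.05 in methylated clusters and 0.09 over all. Another scaling moved the background more than the methylated clusters. With TMM scaling the unadjusted calls were 150 lower and 24 higher among the 2363 methylated clusters. Over all 20674 clusters they were 619 lower and 501 higher, in place of 308 and 2348. The median log2 difference with TMM scaling was -0.09 in methylated clusters and 0.00 over all. Calls in both directions together were then a larger share of methylated clusters than of all clusters. With tags per 1000000 they were a smaller share.

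The clusters with the smallest p values show how few tags such differences rest on. At chr2:157295534-157296485 (5 sites, 45457 bp downstream of Src, a tyrosine kinase gene) the m-score was 1.71, 1.98, 0 and 2.57 with lingonberries and 6.83, 10.2, 7.88 and 9.64 with HFD alone. The groups did not overlap, and the difference was -7.08 ± 1.54 (SE; limma adjusted p = 0.604). It rested on 0 to 4 HpaII tags per lingonberry mouse and 5 to 8 per HFD mouse. The largest of these differences towards lower values was -10.1 at chr7:29784569-29785312, from 14.9 ± 1.89 to 4.83 ± 4.36 (SD, n = 4). In the other direction, chr8:74985449-74986197 (12888 bp downstream of Cherp) was at 11.03, 12.1, 14.4 and 12.4 with lingonberries and at 0, 0, 6.68 and 3.55 with HFD. Its difference was 9.91 ± 1.92 (SE; limma adjusted p = 0.604), on 5 to 10 and 0 to 2 tags per mouse.

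The remaining clusters named by the same rule differed by -7.74 (chr4:43555420-43556678), -6.39 (chr14:61036439-61036898) and -8.68 (chr4:141170540-141171138) units. Towards higher values they differed by 8.76 (chr19:40350377-40351264, 4022 bp upstream of Pdlim1), 6.68 (chr7:134110383-134111341), 6.29 (chr1:189102906-189103717) and 7.55 (chr14:32035186-32036324). The groups did not overlap in any of these 7, and none passed the adjusted threshold in limma. All clusters of this rule were chosen for small p values, so their lack of overlap is no finding. Over all clusters, lingonberry mice were all below HFD mice in 0.963% and all above in 3.88%. Chr19:40350377-40351264 was also the cluster nearest below the threshold of membership.

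Lists of 20 genes of liver lipid metabolism and 14 genes of the methylation machinery were compared with the methylated clusters. Only 3 and 6 of them could be placed, and 0 lay in a methylated cluster. The placed lipid promoters were at 63.9 for Pparg, 67.8 for Srebf1 and 78.8 for Mlxipl, the gene of the glucose-sensing regulator ChREBP. Among the enzymes that write methylation, Dnmt1 was at 79.8 and Dnmt3b at 59.4, and the 3 placed starts of Dnmt3a were at 72.0, 80.9 and 79.7. Tet2, Tet3 and Uhrf1 were at 78.1, 82.8 and 71.0. Since 0.448% of all placed promoters were below 10, a count of 0 among so few is no finding about these lists.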

How the data were processed

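Per the file headers, each deposited file lists HpaII sites of 1 liver with an m-score and a second value named conf. The deposited m-score is a score that behaved as the angle between MspI and HpaII tags, and the deposited conf is a signal that behaved as the length of that vector, as inferred from the numbers. The submitters' processing notes name mm9 and CASAVA. No source used here gives the aligner or filters.

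Tags were taken as the sine (HpaII) and cosine (MspI) of each vector, and 96.1% to 97.0% of the HpaII values above 0 were whole numbers within 0.02. PCR tags without molecular identifiers are not independent molecules, so limits at a count of 0 cover counting error only. Clusters were tested with limma 3.58.1 (R 4.3.3; empirical Bayes, mean trend, two-sided, Benjamini-Hochberg over all clusters), checked on simulated data. Groups of 4 mice, 1 library each, were taken from the diet labels, which give no batch and no pairing.

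The clusters and gene lists were chosen with earlier results of these data known. Clusters named singly were the 10 with most sites, the 5 with the smallest limma p in each direction, the 5 without tags and with most MspI tags, the 3 on either side of the threshold, and the 5 with the largest gap between sites and between mice. Listed genes were to be named from an mm9 annotation, which was not used here. Their names, and those of the other placed genes, instead come from promoters placed with at least 3 listed CCGG sites at a spacing unique on the chromosome, a step added after the data were seen. Chromosome 18 was not used for promoters, which left 2303 clusters. Alternatives were other MspI minimums, gaps and thresholds, shared-tag sites left out, other scalings, and each mouse left out in turn.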

Additional observations from a re-analysis of the deposited data

Results flagged for a closer look

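In 13 of 112 groups of 4 mice, a single mouse stood apart from the other 3 by Dixon's criterion at the 95% level. A rate of 1 in 20 groups would give about 5.6. Some of the 112 groups had equal values in all mice and could not be flagged, and some clusters were named for a gap between mice. The 13 can therefore not be weighed against 5.6. HFD mouse 3 accounted for most of the flagged groups over all methylated clusters. It was the highest of its group in mean m-score (5.65, next 5.12), HpaII tags per scaled MspI tag (0.0870, next 0.0782) and HpaII tags per 1000000 (1383, next 1243). It was also highest at end sites (6.69, next 5.97), at inner sites (5.05, next 4.67) and in the difference between them (1.64, next 1.35). These 6 measures share their tags and are not independent. That library was the smallest, with 5877080 HpaII tags, and the part of depth in its position was not tested. Lingonberry mouse 4 was highest of its group in the share of sites with a tag at equal depth (29.7%, next 26.7%).

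Among the clusters named singly, lingonberry mouse 3 was at 30.2 (next 10.2) at chr3:28663666-28664305, on 14.5 of 57 tags. HFD mouse 3 was at 25.9 (next 4.30) at chr5:145159930-145160663, on 7 of 20 tags, and lingonberry mouse 4 was at 21.5 (next 8.17) at chr13:49369082-49370005, on 11 of 28 tags. These 3 were named for the gap between mice, so their position is no finding. At chr13:45661590-45663831 lingonberry mouse 4 was highest of its group at 1.43 (next 0.995), on 4 tags. The lowest of its group was HFD mouse 2 at 1.37 (next 3.37) at chr19:45627322-45628978 and lingonberry mouse 2 at 5.56 (next 10.4) at chr15:73581721-73582478.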

How the results depend on the processing

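In limma, 0 methylated clusters were called under any alternative run, on the m-score or on tags. With 1 mouse left out in turn, 108 to 155 of 2363 methylated clusters had an unadjusted p below 0.05 by limma on the m-score. Over all 20674 clusters the count was 1184 to 2051. By limma on tags it was 125 to 153 methylated clusters, where the fit on all mice had 6.14% of them against 12.8% of all clusters. In each fit with a mouse left out, 0 methylated clusters were called. The median diet difference lay between -0.417 and -0.158 in those settings, the mean difference between -0.534 and -0.308, and the difference in tags per scaled MspI tag between -0.00909 and -0.00548. The values nearest to 0 for the median and the mean came without HFD mouse 3. The difference in the share of sites with a tag lay between 1.60 and 7.19 percentage points and was -3.47 at equal depth. End sites exceeded inner sites by 1.16 to 1.26 units with 1 mouse left out, against 1.22 for all mice. That excess was 1.07 with an MspI minimum of 20, 1.40 with a minimum of 5 and 0.772 with a membership threshold of 5. A threshold of 5 also gave a median diet difference of -0.119, a mean difference of -0.181 and -0.00362 tags per scaled MspI tag. Gaps of at most 1000 bp gave a median difference of -0.519. The number of methylated clusters was 959 with an MspI minimum of 20, 1254 with gaps of at most 300 bp, 4291 with gaps of at most 1000 bp and 1209 with a threshold of 5. The causes were not tested beyond what each change of rule does by construction. No paired analysis was possible because the labels carry no replicate numbers shared between diets. Depth limits single sites most, since the median methylated cluster had 29 HpaII tags in all 8 mice together.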

Other observations

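The cluster at chr1:76687469-76688430 had its highest value in HFD mouse 3, at 23.7, where the next mouse was at 7.07, and that at chr8:98788810-98789207 in lingonberry mouse 3, at 24.6, where the next was at 10.4. Both rested on 9 HpaII tags in the highest mouse.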
